A study of Mus musculus with 6 samples.

Results

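The 9 mouse genes described here write, maintain, read or erase 5-methylcytosine in DNA: Dnmt1, Dnmt3a, Dnmt3b, Dnmt3l, Uhrf1, Tet1, Tet2, Tet3 and Tdg. They were chosen as a functional group. A probe belonged to a gene when its name on the array was a RefSeq transcript accession of that gene. This gave 18 of the 55681 distinct probes on the array and 9 of 37074 named genes and intervals. The test covered 17 of them, each well above background on all arrays of SC1, of DMSO or of both. The one left out, a Tet3 probe, was not well above background on any array.

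The cells were of the J1 embryonic stem cell line, a single line of strain 129S4/SvJae whose labelled tissue is the inner cell mass, adapted to gelatin. One set of 3 samples received 1 µM SC1 for 6 h, and the other 3 received DMSO, the solvent, for 6 h. All 6 were kept with 1000 U/ml LIF, the cytokine that sustains self-renewal through STAT3. SC1 (pluripotin) inhibits ERK1 and RasGAP, according to the literature on the compound. The comparison addresses which transcripts respond to SC1, and only RNA was measured, not DNA methylation. Whether replicates came from different cultures is not given, and p-values therefore cover only the spread among these arrays, possibly technical.

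Methylation of cytosine in CG dinucleotides is placed on unmethylated DNA by DNMT3A and DNMT3B. DNMT3L has no catalytic activity of its own and stimulates both. After replication, UHRF1 recognises DNA methylated on the old strand only and brings DNMT1 to copy the mark. TET1, TET2 and TET3 oxidise 5-methylcytosine, and TDG excises the later oxidation products so that base excision repair can restore cytosine. Mouse embryonic stem cells survive without methylation, and blocking MEK in them is known to lower methylation and the de novo enzymes.

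The windows around 1 transcription start each of 5 genes lower in SC1 are shown as examples of the de novo, maintenance and oxidising roles, the 3 windows of Dnmt3a being described by count only. They are RefSeq sequences of build GRCm38.p6, from 250 bases before to 50 bases after a start, read 5′ to 3′ along the gene's strand. Capitals mark matches to CACGTG, the E-box bound by MYC and its relatives, to TTTCGCGC, TTTGGCGC or TTTCCCGC, forms of the E2F motif, and to CCGGAAGT, an ETS motif, each searched on both strands. The Dnmt3b window is chr2:153649199-153649498 (plus strand), that of Dnmt3l start 2 chr10:78049592-78049891 (plus), that of Tet1 chr10:62887275-62887574 (minus), that of Dnmt1 start 3 chr9:20952574-20952873 (minus) and that of Uhrf1 start 2 chr17:56304063-56304362 (plus).
Dnmt3b: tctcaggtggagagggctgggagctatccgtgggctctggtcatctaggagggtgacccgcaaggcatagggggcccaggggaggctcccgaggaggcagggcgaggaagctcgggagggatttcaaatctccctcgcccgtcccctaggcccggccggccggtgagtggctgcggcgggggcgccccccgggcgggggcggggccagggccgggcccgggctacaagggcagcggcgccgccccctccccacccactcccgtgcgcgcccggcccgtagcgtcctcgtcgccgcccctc
Dnmt3l start 2: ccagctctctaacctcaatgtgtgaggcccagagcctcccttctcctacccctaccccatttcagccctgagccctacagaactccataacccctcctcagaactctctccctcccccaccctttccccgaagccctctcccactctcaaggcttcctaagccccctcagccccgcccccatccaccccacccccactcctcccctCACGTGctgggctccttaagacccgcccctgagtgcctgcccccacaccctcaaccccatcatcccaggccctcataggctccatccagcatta
Tet1: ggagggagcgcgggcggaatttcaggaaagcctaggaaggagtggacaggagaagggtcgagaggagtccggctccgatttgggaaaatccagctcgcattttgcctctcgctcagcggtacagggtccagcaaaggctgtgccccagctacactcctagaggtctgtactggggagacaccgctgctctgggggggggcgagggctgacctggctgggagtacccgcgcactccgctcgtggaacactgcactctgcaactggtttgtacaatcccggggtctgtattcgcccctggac
Dnmt1 start 3: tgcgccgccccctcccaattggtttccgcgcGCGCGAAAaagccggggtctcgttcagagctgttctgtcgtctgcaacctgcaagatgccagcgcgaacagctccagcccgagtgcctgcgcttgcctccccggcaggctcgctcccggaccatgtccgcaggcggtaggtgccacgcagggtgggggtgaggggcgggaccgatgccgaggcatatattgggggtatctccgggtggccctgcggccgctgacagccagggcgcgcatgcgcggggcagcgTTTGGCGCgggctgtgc
Uhrf1 start 2: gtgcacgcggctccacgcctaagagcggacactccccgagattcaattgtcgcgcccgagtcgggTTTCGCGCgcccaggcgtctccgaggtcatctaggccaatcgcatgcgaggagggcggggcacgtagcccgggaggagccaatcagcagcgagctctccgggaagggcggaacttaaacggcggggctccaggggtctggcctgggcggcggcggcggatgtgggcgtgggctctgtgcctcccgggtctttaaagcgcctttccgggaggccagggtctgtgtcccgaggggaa

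RefSeq listed 16 such windows for the 9 genes. E2F motifs stood in 2 of the 16, the Dnmt1 and Uhrf1 windows above, against 1.84% of all 32851 windows of this length. E-boxes stood in 3 of them, the Dnmt3l window above, 1 of Dnmt3a and that of Tdg, against 7.15% of all windows. The ETS motif stood in none, against 3.89% of all. The maintenance pair thus held the E2F matches, while the E-box matches were spread over genes that fell and a gene that did not pass. The count of CG dinucleotides per window ran from 2, at the first Dnmt1 start, to 57 at Tet2, where the median of all windows was 7. Dnmt3b had 30 and Tet1 17, but the 3 Dnmt3l windows had only 6, 4 and 3. Genes that fell were therefore found with both CG-rich and CG-poor starts.

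After 6 h of SC1 the transcripts of all 3 de novo methylation genes and of Tet1 were reduced, to between 53.2% and 71.4% of their level in DMSO on the brightest probe. The maintenance genes Uhrf1 and Dnmt1 were lower by less, at 83.7% and 90.5% of DMSO, and the call for Dnmt1 was lost in 14 of 19 alternatives. Tet2, Tet3 and Tdg did not pass the test on their brightest probes. Of the 9 genes, 6 fell and 3 did not pass at a Benjamini-Hochberg adjusted p under 0.05 with limma, while of all 25428 genes and intervals tested 38.3% passed, 20.2% lower and 18.1% higher in SC1. The median log2 fold change was -0.26 for the 9 genes and -0.0052 for all genes tested. The SC1 arrays lay below all DMSO arrays for 6 of the 9 genes, which was so for 27.6% of all genes tested, and 52.1% did not overlap in either direction. In bulk RNA, fewer cells with a transcript and less of it per cell cannot be told apart.

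**Figure D1:**
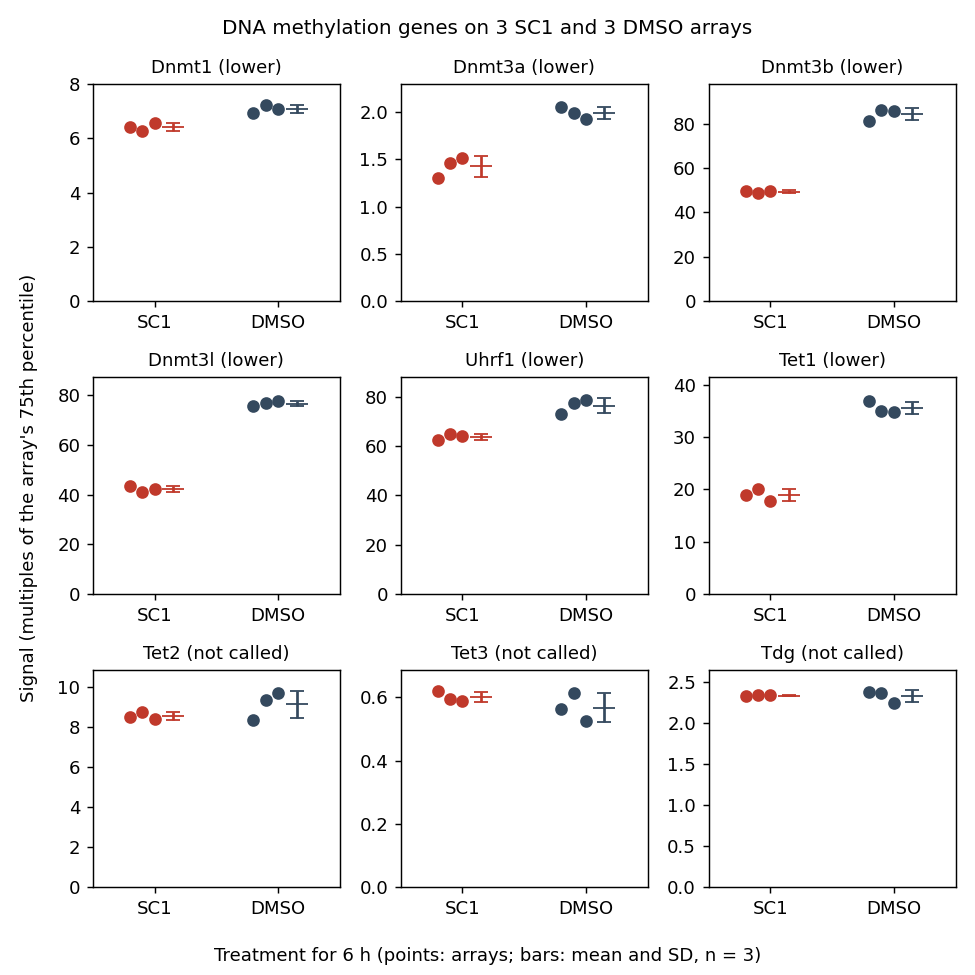
Signal of the brightest probe of each of the 9 genes on 3 SC1 arrays (left, red) and 3 DMSO arrays (right, dark grey), in multiples of the array's 75th percentile, with the mean and SD beside the points and axes from 0. The groups are apart for the top 6 panels and overlap for Tet2, Tet3 and Tdg.

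The signal is given as a multiple of the 75th percentile of all probes on the same array, which was itself 443 to 493 on SC1 arrays and 532 to 539 on DMSO arrays. A gene is represented by its probe with the highest mean, and since probes differ in brightness for equal RNA, differences and sums over probes are read only between arrays, not as levels of one gene against another. The arrays were similar in quality, with 63.2% to 65.1% of probes well above background on SC1 arrays and 65% to 65.6% on DMSO arrays. No spot of a gene probe was saturated. All 8 genes of a list induced by ERK signalling fell, where 20.2% of all genes tested fell and 18.1% rose. The list was chosen with earlier results of these data known. Of its genes, Spry4 fell to a signal not well above background on any SC1 array. Among the others were Dusp6, a phosphatase gene of ERK, and Egr1, an immediate early gene, with log2 fold changes of -4.99 and -3.53. All 8 embryonic stem cell markers were well above background on every array. Their summed signal was 575 to 609.8 in SC1 and 597 to 619 in DMSO, with 1 marker higher, 3 lower and 4 not passing. Most of that sum was Dppa5a, and without it the markers summed to 165 to 172 in SC1 and 222 to 228 in DMSO. Most of this gap came from Utf1, a chromatin factor of pluripotent cells named after its value was seen. Utf1 read 12.3, 11.8 and 13.0 in SC1 against 62.3, 62.8 and 65.7 in DMSO (log2 fold change -2.36, limma adjusted p = 7.13e-06). Of the other markers Klf4 rose, Sox2 and Zfp42 fell, and Pou5f1, Nanog, Esrrb and Dppa5a did not pass.

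Markers of other cell types moved in both directions, where 18.1% of all genes tested rose and 20.2% fell. The 6 tested fibroblast markers, 3 higher and 1 lower, summed to 1.85 to 1.94 in SC1 and 2.33 to 2.51 in DMSO, and Lum and Postn did not pass the filter. Without Thy1, which was lower in SC1, the fibroblast sum was 1.21 to 1.22 in SC1 and 0.960 to 1.04 in DMSO. The 6 primitive endoderm markers, 3 of them higher, summed to 21.1 to 21.9 in SC1 and 18.1 to 19.2 in DMSO, and the 5 neural markers, 2 higher and 2 lower, to 10.02 to 10.73 in SC1 and 7.06 to 7.16 in DMSO. Without Tubb3 the neural sum was 2.49 to 2.66 in SC1 and 3.10 to 3.17 in DMSO, and without Lamb1 the primitive endoderm sum was 0.826 to 0.914 in SC1 and 0.790 to 0.825 in DMSO. The 4 tested trophoblast markers, 3 higher and 1 lower, summed to 33.8 to 35.9 in SC1 and 14.5 to 15.2 in DMSO, most of it from Tfap2c, which embryonic stem cells also express, and to 5.59 to 5.69 in SC1 and 3.56 to 3.77 in DMSO without it. Elf5 and Hand1, which define trophoblast, did not pass the filter, and Cdx2 was not well above background on any SC1 array. The part of these markers in the changes below was not tested.

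Dnmt3b, a de novo methyltransferase gene, was measured by 3 probes. The brightest read 49.9, 48.7 and 49.8 in SC1, against 81.2, 86.3 and 86.0 in DMSO. No SC1 array came near the lowest DMSO array, and the log2 fold change was -0.77 (SE 0.0432, n = 3 per group, adjusted p = 9.49e-05, limma over all genes). The other probes gave 17.4, 15.9 and 17.2 in SC1 against 31.0, 31.7 and 30.8 in DMSO, and 15.9, 15.5 and 16.0 in SC1 against 29.1, 28.0 and 29.4 in DMSO. Their log2 fold changes were -0.89 and -0.87, both lower than that of the brightest probe. Of the whole set, 3.41% of all genes tested had a lower log2 fold change than the brightest Dnmt3b probe.

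Dnmt3l, which encodes the cofactor of the de novo enzymes, has 1 probe. It read 43.3, 41.2 and 42.3 in SC1, against 75.6, 77.0 and 77.7 in DMSO. The groups were far apart relative to their spread, a 1.82-fold decrease or -0.86 in log2 (SE 0.0405, limma adjusted p = 5.45e-05). Dnmt3a, the other de novo enzyme gene, also has 1 probe, and it read 1.30, 1.46 and 1.51 in SC1, against 2.05, 1.99 and 1.93 in DMSO. Its log2 fold change was -0.49 (SE 0.0668, adjusted p = 0.0026). SC1 replicate 1 was the lowest of the 6 arrays for Dnmt3a, and without it the value was -0.42. Dnmt3a has starts that give a long and a short form, and which of them its probe reads was not analysed here.

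The decreases of the de novo genes were set against each other. Within each array the log2 difference between Dnmt3l and Dnmt3a was 5.05, 4.82 and 4.81 in SC1, against 5.20, 5.27 and 5.33 in DMSO, a change of -0.38 (SE 0.0887). For Dnmt3b and Dnmt3a it changed by -0.29 (SE 0.0863), and for Dnmt3l and Dnmt3b by -0.089 (SE 0.0214). The last rests on the brightest Dnmt3b probe: it was -0.018 with the mean of the Dnmt3b probes, and the other 2 probes had lower log2 fold changes than Dnmt3l, so no order of these 2 genes can be read. Array scaling cancels in these differences, in which the estimated decreases of Dnmt3b and Dnmt3l were larger than that of Dnmt3a. Of 7 pairs of genes compared in this way all had groups that did not overlap. The pairs share genes, and how often other gene pairs do not overlap was not computed, while 52.1% of single genes tested did not overlap. For Tet2 and Tet3 the gap was narrow, with SC1 arrays up to 3.88 and DMSO arrays from 3.89. Each of the 7 pairs gave an exact two-sided permutation p = 0.1, or 0.1 after Benjamini-Hochberg adjustment over the 7 pairs. That is the smallest p that 3 arrays against 3 can give, so none could pass.

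**Figure D2:**
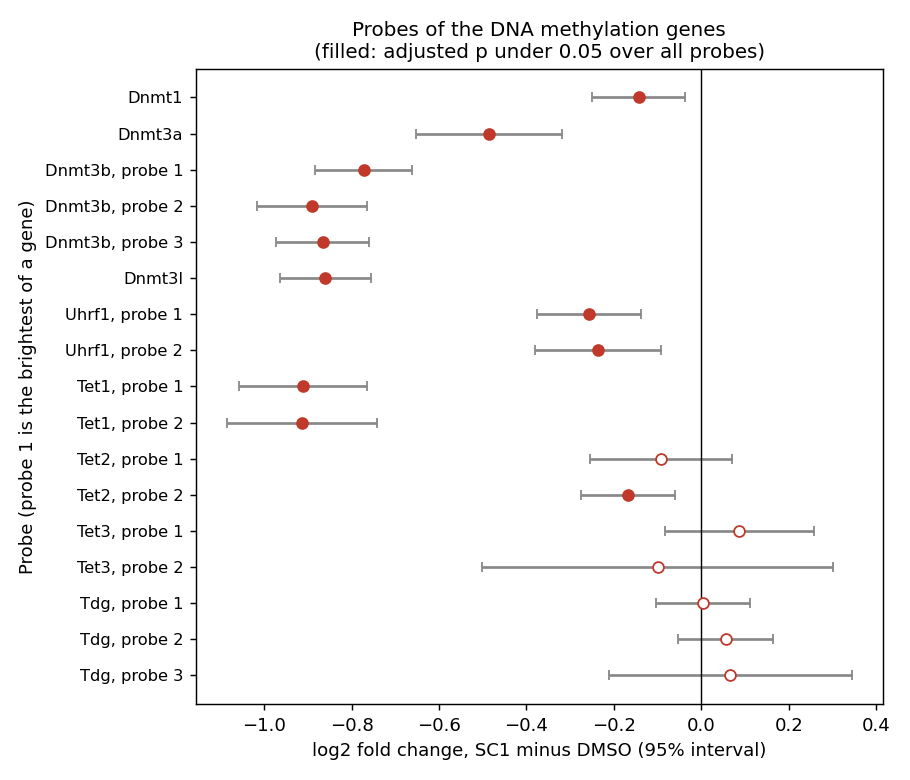
log2 fold change (SC1 minus DMSO) of the 17 tested probes of the 9 genes, with 95% intervals from limma; filled points passed at an adjusted p under 0.05 over all probes. Probes of the same gene lie close together for Dnmt3b, Uhrf1 and Tet1, and the 2 Tet3 probes lie on either side of 0.

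Uhrf1, whose product guides DNMT1 to newly replicated DNA, was measured by 2 probes. The brightest gave 62.5, 65.1 and 64.0 in SC1, against 72.9, 77.6 and 78.6 in DMSO. All SC1 arrays were lower than every DMSO array, with a log2 difference of -0.26 (SE 0.0469, adjusted p = 0.00758). The dimmer Uhrf1 probe, named by another transcript, read 1.25, 1.38 and 1.27 in SC1 against 1.46, 1.57 and 1.56 in DMSO, and its log2 fold change was -0.24 (adjusted p = 0.0243 over all probes). When arrays were scaled to spike-in RNAs instead, the value on the brightest probe was -0.30 with an adjusted p = 0.187.

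Dnmt1, the maintenance methyltransferase gene, read 6.41, 6.25 and 6.56 in SC1, against 6.92, 7.23 and 7.08 in DMSO. The groups did not overlap but the difference was small, with a log2 difference of -0.14 (SE 0.0417, adjusted p = 0.0388), and 28.7% of all genes tested had a lower value. Leaving out any single array, each of the 6 in turn, ended the call, with adjusted p values of 0.0606 to 0.116. It was also lost with quantile normalization, where the log2 fold change was -0.083 (adjusted p = 0.138). Within arrays the log2 difference between Dnmt1 and Uhrf1 changed by 0.11 (SE 0.0381), the estimated decrease being the smaller for Dnmt1.

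Tet1, the oxidising enzyme gene with the largest change of the 9, was measured by 2 probes. The brightest read 19.0, 20.0 and 17.8 in SC1, against 36.8, 35.0 and 34.8 in DMSO. Its log2 fold change was -0.91 (SE 0.0578, adjusted p = 0.000147), a 1.88-fold decrease. The other probe read 3.86, 4.53 and 4.04 in SC1, against 7.59, 7.94 and 7.83 in DMSO, and gave the same log2 fold change of -0.91. Of all genes tested, 2.46% had a lower value than Tet1.

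Tet2 did not pass on its brightest probe, which read 8.47, 8.75 and 8.39 in SC1, against 8.35, 9.33 and 9.67 in DMSO. The groups overlapped, and the log2 fold change of -0.092 had a 95% interval of -0.25 to 0.066 (adjusted p = 0.316). It was -0.15 without DMSO replicate 1 and -0.048 without DMSO replicate 3, and passed in neither. A dimmer Tet2 probe read 2.81, 2.93 and 2.87 in SC1 against 3.21, 3.16 and 3.31 in DMSO, without overlap, and passed over all probes with a log2 fold change of -0.17 (adjusted p = 0.0285). Both intervals leave room for a small decrease and neither reaches the size seen for Tet1. Within arrays the log2 difference between Tet1 and Tet2 was 1.17, 1.19 and 1.08 in SC1, against 2.14, 1.91 and 1.85 in DMSO, a change of -0.82 (SE 0.0952).

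Tet3, expressed most in oocytes and neurons, read 0.621, 0.596 and 0.589 in SC1, against 0.565, 0.615 and 0.524 in DMSO. The groups overlapped, with a log2 fold change of 0.086 and a 95% interval of -0.080 to 0.25 (adjusted p = 0.371). The value was 0.030 without DMSO replicate 3 and 0.15 without DMSO replicate 2, and passed in neither. A second, dimmer probe gave -0.10 with an interval of -0.50 to 0.30. The within-array log2 difference between Tet1 and Tet3 changed by -0.997 (SE 0.0853), and that between Tet2 and Tet3 by -0.18 (SE 0.106), or -0.078 without DMSO replicate 3.

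Tdg, the glycosylase gene that completes removal, read 2.32, 2.34 and 2.34 in SC1, against 2.38, 2.37 and 2.24 in DMSO. Its log2 fold change was 0.0034 with a 95% interval of -0.099 to 0.11 (adjusted p = 0.96). The other 2 probes gave 0.056 and 0.066, and none of the 3 passed. Over all tested probes of the 9 genes, 11 of 17 fell and 6 did not pass, while of all 35310 probes tested 36.3% passed and 19.5% fell.

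All 6 arrays were on 1 slide, and its first row of positions held the 3 DMSO arrays and SC1 replicate 1, while SC1 replicates 2 and 3 lay in the second row. With the row as a block, which gives the same estimate as the first row alone, the log2 fold changes were -0.76 for Dnmt3b, -0.82 for Dnmt3l, -0.61 for Dnmt3a, -0.90 for Tet1, -0.29 for Uhrf1 and -0.14 for Dnmt1. The first row alone sets 1 SC1 array against 3 DMSO arrays, so its spread comes from DMSO only and the single SC1 array is assumed to vary like them. On that assumption Dnmt3a, Dnmt3b, Dnmt3l and Tet1 had adjusted p values of 0.00712 to 0.0139, Uhrf1 had 0.0755 and Dnmt1 0.209. The second row holds SC1 arrays only and gives no value.

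**Figure D3:**
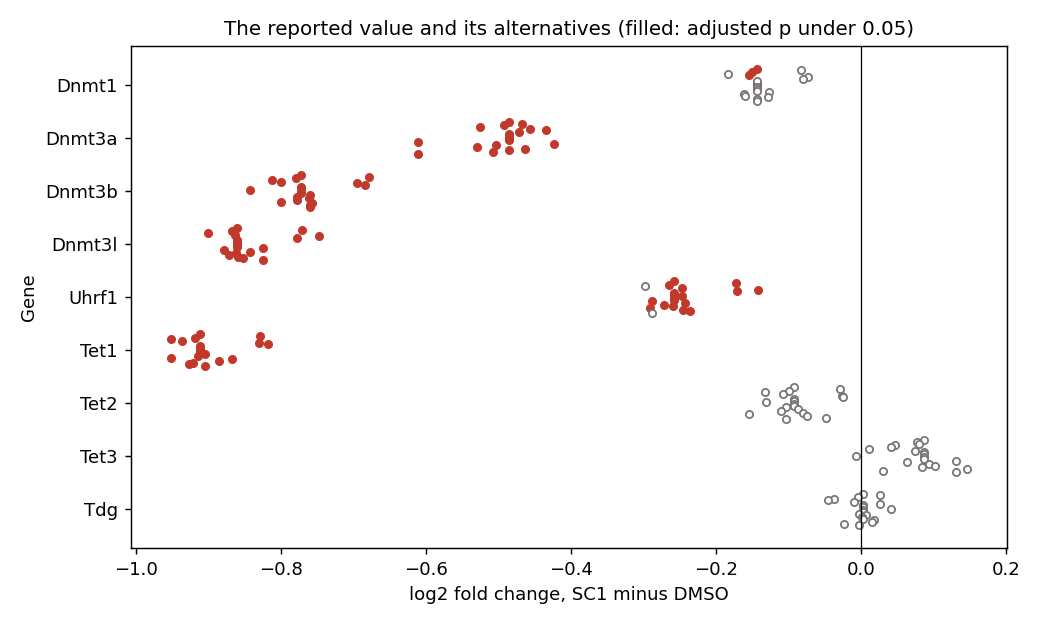
log2 fold change of the 9 genes in the reported fit and in 19 alternatives of scaling, background, filter, model and left-out arrays, with filled points where the adjusted p was under 0.05. Tet1, Dnmt3l, Dnmt3b and Dnmt3a are filled throughout, Dnmt1 is mostly open, and Tdg lies on both sides of 0.

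By the Euclidean distance between log2 values centred per gene over the 6 arrays, the genes with a pattern most like that of Tet1 were Rassf3 (distance 0.0764), Slc12a4 (0.0780) and Phf21a (0.0959), among 15478 genes with a RefSeq symbol. Their log2 fold changes were -0.91, -0.86 and -0.88. With 2 treatments the distance mostly follows the size of the difference between them.

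Genes listed as recruiters and regulators of de novo methylation moved in both directions. Some of them, such as Dppa3 and Zfp57, act on other steps of methylation. Of the 16 genes on this list, 5 rose, 3 fell and 8 did not pass, where 18.1% of all genes tested rose and 20.2% fell. The balance depends on the probe used. With the mean of each gene's probes, 4 of the list rose and 5 fell, where 4698 of all 25428 genes rose and 5260 fell. Prdm14, which encodes a repressor of Dnmt3 genes in mouse embryonic stem cells, read 5.94, 6.49 and 6.07 in SC1, against 2.39, 2.32 and 2.58 in DMSO. Every SC1 array lay above every DMSO array, and the log2 fold change was 1.34 (SE 0.0603, adjusted p = 4.83e-05). Dppa3, whose product keeps UHRF1 and TET activity in check in eggs and early embryos, read 3.21, 2.97 and 3.38 in SC1 against 1.87, 1.88 and 2.08 in DMSO, a log2 fold change of 0.71 (adjusted p = 0.000732).

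Zfp57, which encodes a zinc finger protein that holds methylation at imprinted regions, moved the other way. It read 1.64, 1.41 and 1.42 in SC1, against 5.42, 5.15 and 5.44 in DMSO, a log2 difference of -1.84 (SE 0.0707; adjusted p = 2.85e-05). A second Zfp57 probe gave -0.57, so its probes put the decrease at different sizes. Ehmt2, the gene of the histone H3 lysine methyltransferase G9a, had a log2 fold change of -0.42. Scaled to spike-ins, 4 of the 16 genes passed, where 5060 of all 25428 genes passed.

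**Figure D4:**
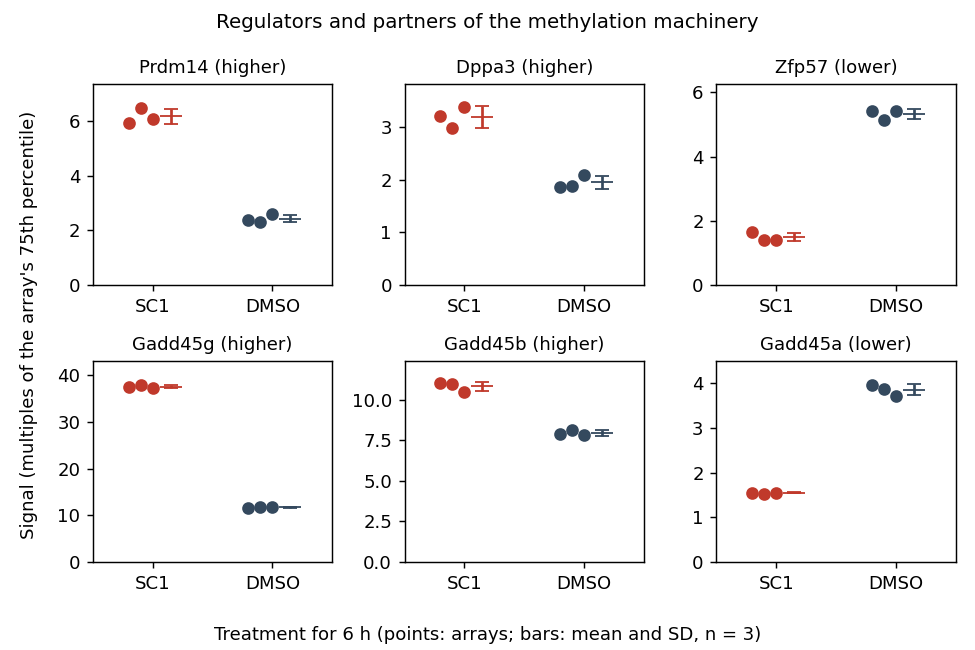
Signal of 6 regulators and partners on 3 SC1 arrays (left, red) and 3 DMSO arrays (right, dark grey), in multiples of the array's 75th percentile, with the mean and SD beside the points and axes from 0. Prdm14, Dppa3, Gadd45g and Gadd45b were higher in SC1, Zfp57 and Gadd45a lower, with no overlap between groups.

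Of 7 partners of maintenance methylation 5 fell and 2 did not pass, where 20.2% of all genes tested fell. Cdca7l read 0.182, 0.202 and 0.192 in SC1, against 0.298, 0.309 and 0.309 in DMSO, a log2 difference of -0.67 (SE 0.0526; adjusted p = 0.000309). Hells, a chromatin remodeller needed for normal methylation, and Cdca7, which recruits it, had log2 fold changes of -0.39 and -0.22. Pclaf, a PCNA-binding factor gene, had -0.19 on its brightest probe and -0.48 on another. The count that passed was 2 of 7 with spike-in scaling, 2 with the slide row as a block and 3 with quantile normalization. In the same settings 5060, 5539 and 9702 of all 25428 genes passed.

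A list of 16 S-phase genes was followed because Dnmt1 and Uhrf1 are transcribed with them. Of 15 tested, 4 fell and 11 did not pass, where 20.2% of all genes tested fell and 38.3% passed in either direction. Ccne2 did not pass the filter. Ccne1, the cyclin E1 gene, read 39.2, 37.8 and 38.4 in SC1, against 67.6, 65.7 and 66.1 in DMSO, a log2 difference of -0.79 (SE 0.0388). Slbp, Mcm7 and Mcm4 had -0.31, -0.20 and -0.16, and Mcm4 lost its call without any single array. With quantile normalization 1 gene of the list rose and 3 fell, where 5052 of all 25428 genes rose and 4650 fell. The list's median was -0.080.

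Of 9 tested genes that read methylated CG, 2 rose, 1 fell and 6 did not pass, a share of calls near that of all genes. Zbtb38 had a log2 fold change of 0.35 and Mbd1 one of -0.25. Scaled to spike-ins, their adjusted p values were 0.168 and 0.196. With 1 array left out, the count of called readers ran from 1 without DMSO replicate 2 to 5 without SC1 replicate 2. It was 0 with spike-in scaling and 5 under quantile normalization, under both normexp settings and for the deposited table. An intensity trend gave 6 and the slide row as a block gave 1. Of all 25428 genes, 7777 to 8439 passed with 1 array left out. The count was 5060 with spike-in scaling, 9702 under quantile normalization, 11074 with the intensity trend and 5539 with the row block.

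Among partners of active demethylation the growth arrest genes of the GADD45 family, reported to promote demethylation with TDG, diverged. Gadd45g read 37.5, 37.9 and 37.2 in SC1, against 11.5, 11.7 and 11.8 in DMSO, with a log2 difference of 1.68 (SE 0.0370, adjusted p = 6.82e-06). Gadd45a read 1.55, 1.53 and 1.55 in SC1, against 3.96, 3.88 and 3.71 in DMSO, with -1.32 (SE 0.0420, adjusted p = 1.62e-05). Gadd45b was higher by 0.44 (adjusted p = 0.000653), or 0.40 with an adjusted p = 0.0552 when arrays were scaled to spike-ins. Both called directions thus occur in this family. Parp1, a sensor of DNA strand breaks, fell by 0.41. Of the 23 tested genes of this list 4 rose, 8 fell and 11 did not pass, where 18.1% of all genes tested rose and 20.2% fell. With spike-in scaling 1 of the 23 rose and 3 fell, where 2284 of all 25428 genes rose and 2776 fell.

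Germline genes that promoter methylation is known to silence were followed as a list, without a measure of their methylation. Not all of them were dim in DMSO, where for example Mael read 6.67, 6.44 and 6.38. Of 18 tested, 4 rose, 2 fell and 12 did not pass, where 18.1% of all genes tested rose and 20.2% fell. Sycp2 and Tdrd1 did not pass the filter. The median log2 fold change was 0.018. Brdt, a testis bromodomain gene, read 1.07, 1.21 and 1.11 in SC1, against 0.671, 0.710 and 0.676 in DMSO, with a log2 difference of 0.72 (SE 0.0578, adjusted p = 0.000336) and 1.48 on a second probe. Tex101 and Fkbp6 rose by 0.51 and 0.36, and Slc25a31 fell by 0.26 on the log2 scale. With the row of the slide as a block 1 of the 18 passed, where 5539 of all 25428 genes passed. Dazl, a gene of germ cell development chosen after its value was seen, had -0.054 (adjusted p = 0.677).

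**Figure D5:**
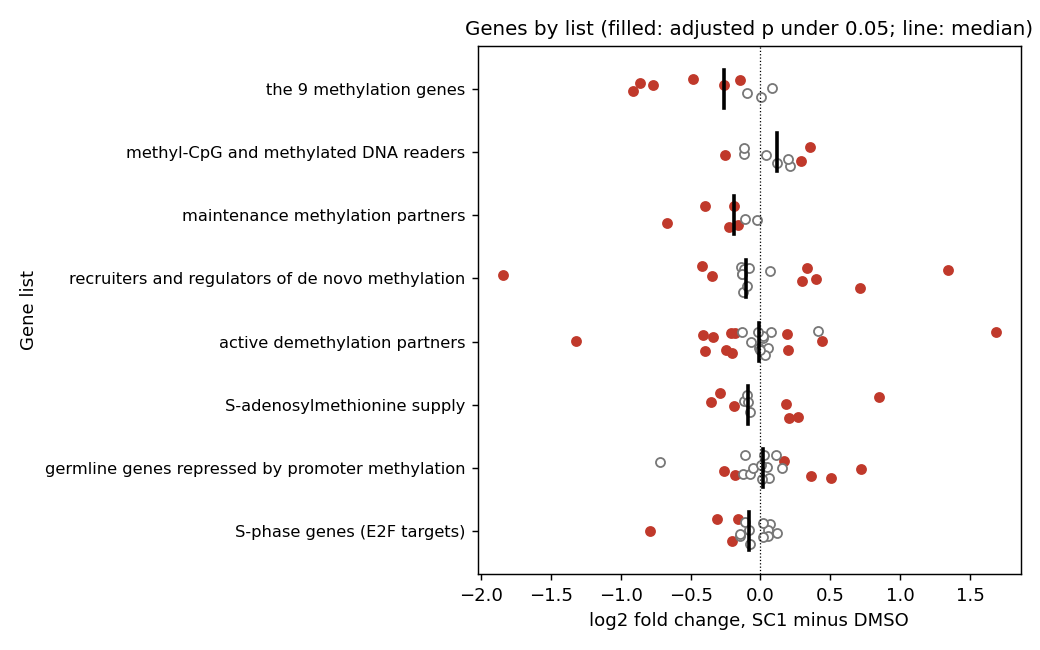
log2 fold change (SC1 minus DMSO) of each tested gene of the 9 methylation genes and of 7 lists of related genes, with filled points at an adjusted p under 0.05 and a line at each list's median. The methylation genes have the lowest median, -0.26, and the list of recruiters and regulators of de novo methylation spreads widest, from -1.84 to 1.34.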

How the data were processed

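Per the labels, total RNA carried Cy3 on 1-colour arrays; Agilent Feature Extraction 10.7 is named in the submitters' processing notes. The deposited files hold an intensity per spot, corrected for background and spatial trend, raw median intensities and 0 or 1 flags. The authors also deposited a log2 table whose method is not given in the sources used here; after centring it differed from quantile-normalized log2 signals by a median of 0.0369.

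Spots flagged as outliers were left out, log2 signals were averaged per probe, and each array's 75th percentile was subtracted. A probe was kept if well above background on the 3 arrays of SC1 or of DMSO, with 1 probe per gene (highest mean), named by RefSeq accession (27235 probes). The treatments were compared in R 4.3.3 by limma 3.58.1, two-sided, Benjamini-Hochberg adjusted over all genes or all probes, threshold 0.05. The fit was also tested on simulated data. There it recovered 8 of 50 changed genes at 1.2-fold, 34 at 1.5-fold, 42 at 2-fold and 48 at 4-fold. The false calls numbered 15 at each fold, among 25403 genes and beside the 8 to 48 recovered. Only 50 genes were changed there, while 9747 of 25428 genes passed in these data. Neither the recovery nor the share of false calls therefore carries over to these data. Pairs of genes were compared with exact permutation tests. The members, gene lists and motifs were chosen with earlier results of these data known. Named genes were the 9 members, up to 4 called genes per list by smallest p, and 3 neighbours of the most changed member; some genes so named are not reported here. Alternatives were quantile, median, spike-in (8 probes) and normexp (offset 50) processing, the deposited table, filters, mean of probes, an intensity trend with a robust prior, the replicate number or slide row as a block, and each array left out in turn. For normexp the median signal was read. The first slide row alone was added after the data were seen. The number of arrays limits the precision. Figures were drawn with matplotlib 3.10.9.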

Additional observations from a re-analysis of the deposited data

How the results depend on the processing

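Dnmt3a, Dnmt3b, Dnmt3l and Tet1 kept their direction and their call in each of 19 alternatives, with log2 fold changes of -0.61 to -0.42, -0.84 to -0.68, -0.90 to -0.75 and -0.95 to -0.82. Uhrf1 lost its call in 2 and Dnmt1 in 14, both with their direction kept. Of the 9 genes 6 passed as reported, 5 whenever 1 array was left out and 4 with spike-in scaling. Of all 25428 genes 9747, 7777 to 8439 and 5060 passed in the same settings. Tdg, which did not pass in any, had -0.0037 with median scaling, -0.037 with spike-in scaling, -0.046 and -0.0099 with normexp and 75th percentile or quantile scaling, -0.0031 with the slide row as a block and in the first row alone, and -0.023 to 0.018 with 1 array left out. Tet3 had -0.0069 as the mean of its probes. The cause of these shifts was not tested.

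Counts over all genes and all probes were 9747 and 12822 as reported, 5060 and 6598 with spike-in scaling, 5539 and 6940 with the slide row as a block, and 4893 and 6055 in the first row alone, which has fewer samples. Over the 7 accessory lists, 45 of 99 genes passed as reported, 15 with spike-in scaling, 23 with the row block and 20 in the first row. Genes that rose were 47.3% of those called, and 57.9% with normexp and 75th percentile scaling. Among called accessory genes the share was 42.2%, 53.5% under quantile normalization, 52.4% for the deposited table and 59.0% under normexp plus quantile. With the replicate block 7905 genes passed, 5 members among them, and Dnmt1 had an adjusted p = 0.104; the deviations of arrays with the same number correlated at -0.017, -0.026 and -0.019, so the numbers do not pair the samples. The pairwise differences between members kept their sign with the mean of probes, with normexp and with 1 array left out, but that of Dnmt3l and Dnmt3b shrank to -0.018 with the mean of probes and that of Tet2 and Tet3 to -0.078 without DMSO replicate 3.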

Other observations

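Genes that supply S-adenosylmethionine, the methyl donor of the DNA methyltransferases, moved in both directions after 6 h of SC1. Of 11 tested, 4 rose, 3 fell and 4 did not pass, where 18.1% of all genes tested rose and 20.2% fell. Mtr, the methionine synthase gene, rose by 0.20 on the log2 scale (limma adjusted p = 0.0144), and lost this call in 5 of 19 alternatives. Ahcyl1 and Shmt1 had log2 fold changes of -0.36 and -0.29. With spike-in scaling the limma adjusted p values of Mtr, Ahcyl1 and Shmt1 were 0.559, 0.0653 and 0.133. Scaled to spike-ins, 1 of the 11 passed, and without SC1 replicate 1 or DMSO replicate 2 the count was 4. Of all 25428 genes, 5060 passed with spike-in scaling, 7945 without SC1 replicate 1 and 7801 without DMSO replicate 2.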
